A study of Mus musculus with 6 samples.

Results

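*Phf11a*, *Phf11b*, *Phf11c*, and *Phf11d* are the mouse copies of the PHD finger gene *Phf11*, and *Setdb2* is the gene next to them on chromosome 14. These 5 genes, of 54232 in the deposited files, were picked from the WT against *Ifnar1*-/- comparison because *Phf11d* was strongly changed there. That comparison is therefore given for them as a description and without a p-value. All 5 passed the filter on low counts. *Phf11c* passed it through the WT group, with 46, 14, and 25 counts there and only 9, 11, and 8 in *Ifnar1*-/- libraries. PHF11 is a nuclear protein with a PHD-type zinc finger, a fold that in other proteins often reads histone tails. It has been linked to NF-κB-dependent cytokine genes in T cells, to allergic disease, and to the trimming of broken DNA ends. SETDB2 belongs to the SET domain enzymes that methylate lysine 9 of histone H3, a mark of silenced chromatin. In myeloid cells it is known as an IFN-inducible enzyme that represses inflammatory genes such as *Cxcl1*.

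Libraries came from inflammatory monocytes (GFP-CD45+CD11b+Ly6ChiLy6G-) sorted from the CNS of mice at the peak of EAE, a model of multiple sclerosis. GFP+ hosts had been lethally irradiated, given equal amounts of WT and *Ifnar1*-/- BM, immunized for EAE, and treated with 30000 IU of rIFN-β daily. Both groups thus shared host, disease, and treatment and differed in IFNAR1, a chain of the type I IFN receptor, and in the CD45 allele by which they were sorted, CD45.1 on WT and CD45.2 on *Ifnar1*-/- cells. There were 3 WT and 3 *Ifnar1*-/- libraries and none from PBS-treated mice. The labels do not tie libraries to single mice, so p-values measure the spread between libraries. The age and sex of the mice of this experiment are not given in the sources used here. Donor strain and receptor genotype cannot be told apart in this design. The *Phf11* genes and *Setdb2* lie on another chromosome than *Ptprc* (CD45, chromosome 1) and *Ifnar1* (chromosome 16).

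Libraries held from 4531782 to 7321380 RSEM expected counts, which are estimated reads per gene, and 3 counts corresponded to 0.410 to 0.662 CPM (counts scaled to library size). The targeted gene, *Ifnar1*, had 153, 126, and 111 normalized CPM in the WT group and 110, 102, and 109 in the *Ifnar1*-/- group (log2 fold change 0.28, SE 0.15, edgeR quasi-likelihood adjusted p = 0.360). Gene-level counts leave unknown which exons were sequenced and do not check the knockout. Defining monocyte markers such as *Ly6c2*, *Ccr2*, and *Csf1r* summed to 4860 to 6870 TPM (a level scaled to transcript length) in WT and 5300 to 5690 TPM in *Ifnar1*-/- libraries, with *Ly6c2* called higher in WT by edgeR. Of the 7 monocyte markers tested, 3 had an unadjusted p under 0.05 and DESeq2 called 3. T cell markers were at far lower levels, but each WT library was above each *Ifnar1*-/- library, with 48.4 to 65.3 summed TPM against 21.2 to 25.4. None of the 7 T cell markers tested was called by edgeR, 7 had an unadjusted p under 0.05, and DESeq2 called 1. For these counts the share of all tested genes with such a p is not given here. B cell markers (1.04 to 1.53 TPM against 0.260 to 0.850) and NK cell markers (4.15 to 13.5 against 0.920 to 3.92) were also higher in every WT library, at lower levels. Summed markers of neutrophils (279 to 4300 against 1430 to 4290), microglia (107 to 194 against 150 to 216), pDCs (19.4 to 25.0 against 13.6 to 20.3), and neural cells (13.0 to 14.7 against 11.2 to 13.0) overlapped between the groups or touched. The lowest neutrophil sum was in WT library 1. The part of other cells in the results below was not tested, and in sorted bulk RNA more cells of a type and more RNA per cell cannot be told apart.

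The copies lie in a row on the minus strand of chromosome 14 (GRCm38), within 164 kb. *Phf11a* (ENSMUSG00000044703.5) spans chr14:59276913-59297522, *Phf11b* (ENSMUSG00000091649.3) chr14:59320964-59341351, *Phf11d* (ENSMUSG00000068245.14) chr14:59347407-59365470, *Phf11c* (ENSMUSG00000091144.2) chr14:59380833-59395381, and *Setdb2* (ENSMUSG00000071350.12) chr14:59402009-59440884. RefSeq gives a promoter window for each of the 5, from 250 bases before to 50 bases after the start site on GRCm38.p6. IRF and ISGF3 complexes, which carry the type I IFN signal to genes, bind an IFN-stimulated response element (ISRE) built from repeated GAAA units. The windows were searched on both strands for the ISRE core GAAANNGAA. For the comparison of the copies, the 90 bases before and 10 bases after each RefSeq start are given 5′ to 3′ on the strand of the gene. Capitals mark bases of the ISRE core or of the shorter IRF core AANNGAAA, a motif added after the windows had been seen. The 2 motifs overlap where both are present.

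Phf11a: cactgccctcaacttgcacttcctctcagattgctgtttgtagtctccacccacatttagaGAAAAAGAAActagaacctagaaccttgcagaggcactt
Phf11b: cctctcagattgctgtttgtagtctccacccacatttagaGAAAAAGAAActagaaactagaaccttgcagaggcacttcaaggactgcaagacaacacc
Phf11d: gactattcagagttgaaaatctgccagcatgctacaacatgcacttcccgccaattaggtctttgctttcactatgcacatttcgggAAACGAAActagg
Phf11c: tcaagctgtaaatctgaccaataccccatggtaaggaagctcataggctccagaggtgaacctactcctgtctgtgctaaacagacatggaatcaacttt
Setdb2: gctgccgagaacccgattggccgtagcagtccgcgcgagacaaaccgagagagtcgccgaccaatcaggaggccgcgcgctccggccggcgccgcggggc

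These stretches cover chr14:59297513-59297612 (*Phf11a*), chr14:59341321-59341420 (*Phf11b*), chr14:59365481-59365580 (*Phf11d*), chr14:59393503-59393602 (*Phf11c*), and chr14:59440871-59440970 (*Setdb2*). The ISRE core was present in *Phf11a*, at 29 to 21 bases before the start, and in *Phf11b*, at 50 to 42 bases before it, in the same surrounding sequence. Of all 32851 promoter windows of this length, 8.56% held it. Both matches extended to the full direct repeat, the ISRE core followed by 1 more A, which 3.44% of windows held. *Phf11d* had no ISRE core in its window but had an IRF core, AAACGAAA, across its RefSeq start site. It ran from base -3 to base 5 with that start as base 1. The IRF core was present in 23.9% of all windows. The windows of *Phf11c* and *Setdb2* held neither motif. No window of the 5 held the NF-κB motif GGGANTTTC (1.11% of all windows). A match is a string of letters and not a shown binding site. The RefSeq start of *Phf11c* is 1869 bases away from the start in GENCODE M21, whereas the other starts differ by 0 to 21 bases, so the window of *Phf11c* does not hold the GENCODE start. The positions above are from the RefSeq starts. The GENCODE start of *Phf11d* lies 20 bases downstream, so that its IRF core is wholly before that start. That of *Phf11b* lies 21 bases upstream and thus nearer to its ISRE core. The *Phf11a* and *Phf11b* windows were identical at 98.2% of 279 aligned positions, and the *Phf11d* window at 67.9% and 69.3% of the positions it shared with them. With 66.3% G and C and 29 CpG pairs, the *Setdb2* window stood apart from those of the copies, which held 43.3% to 49.0% G and C and 0 to 3 CpG pairs.

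*Phf11d* had the largest difference of the 5 genes. In the WT group, libraries 1, 2, and 3 had 86.2, 70.6, and 63.2 normalized CPM, and in the *Ifnar1*-/- group they had 5.50, 5.42, and 2.76. Values below are given in the same order. The lowest WT library was 11.5-fold above the highest *Ifnar1*-/- library. Its log2 fold change, WT over *Ifnar1*-/-, was 3.99 (SE 0.24), a 15.9-fold difference between means of 73.3 ± 11.8 and 4.56 ± 1.56 normalized CPM (SD, n = 3). This placed it at rank 25 of 11254 tested genes by log2 fold change.

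*Phf11b* kept a sizeable level in monocytes without the receptor. It had 91.8, 61.6, and 62.4 normalized CPM in WT and 17.6, 24.6, and 15.8 in *Ifnar1*-/- libraries. The groups did not overlap, with WT library 1 above the other two WT libraries. The log2 fold change was 1.90 (SE 0.22), a 3.73-fold difference.

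*Phf11a* had 23.1, 12.5, and 13.2 normalized CPM in WT and 1.99, 3.22, and 2.21 in *Ifnar1*-/- libraries. Every WT library was at least 3.89-fold above every *Ifnar1*-/- library. The log2 fold change of 2.73 (SE 0.33), or 6.62-fold, lay between those of *Phf11d* and *Phf11b*. Its counts in *Ifnar1*-/- monocytes were only 13, 19, and 12.

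*Phf11c* had the fewest counts of the 5 genes, with 46, 14, and 25 counts in WT and 9, 11, and 8 in *Ifnar1*-/- libraries. This corresponds to 6.55, 2.98, and 4.94 normalized CPM in WT and to 1.37, 1.86, and 1.47 in *Ifnar1*-/- libraries. Every WT library was above every *Ifnar1*-/- library, but WT libraries varied 2.20-fold among themselves. The log2 fold change was 1.63 (SE 0.40).

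*Setdb2*, the methyltransferase gene at the end of the row, had 31.2, 30.6, and 22.3 normalized CPM in WT and 13.7, 12.4, and 13.4 in *Ifnar1*-/- libraries. The lowest WT library was 1.62-fold above the highest *Ifnar1*-/- library, and *Ifnar1*-/- libraries lay close together. The log2 fold change of 1.09 (SE 0.18), or 2.13-fold, was the smallest of the 5 genes.

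**Figure D1:**
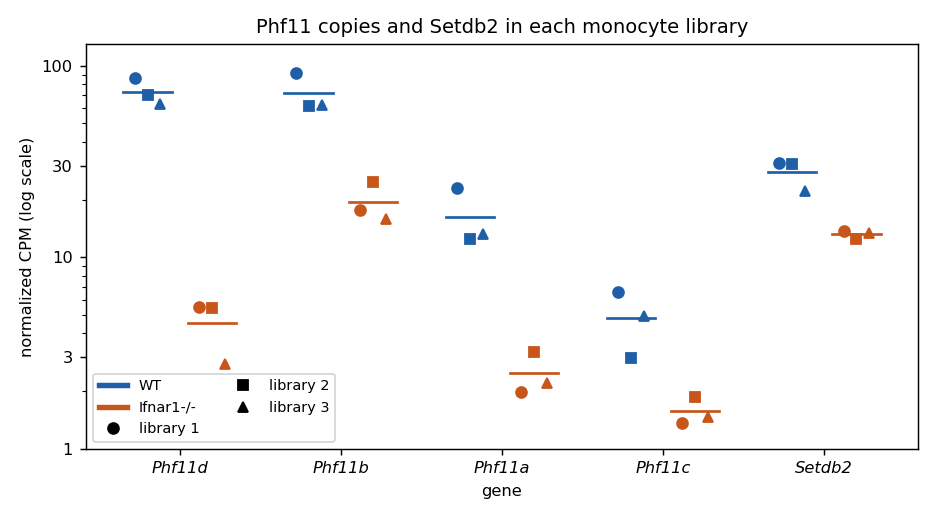
Normalized CPM on a log scale for each library, with WT in blue, *Ifnar1*-/- in orange, a symbol for each library number, and a bar for the mean of 3 libraries. The groups do not overlap for any gene, and the gap between them is widest for *Phf11d* and smallest for *Setdb2* and *Phf11c*.

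By the thresholds of the study's methods, applied to the edgeR test (adjusted p no higher than 0.05, fold change no lower than 1.5), *Phf11a*, *Phf11b*, *Phf11d*, and *Setdb2* were called higher in WT, and *Phf11c* did not pass. Of all tested genes, 1.67% were called higher and 0.462% lower in WT. In each of the 5 genes all WT libraries were above all *Ifnar1*-/- libraries, as they were in 11.1% of all tested genes. Since the genes were picked from this comparison, nothing is read from these shares. *Phf11c* was called when WT library 2 was left out (log2 fold change 1.88) and when no filter on low counts was applied (1.63), and *Setdb2* was not called without *Ifnar1*-/- library 2 (1.06) or without *Ifnar1*-/- library 3 (1.12).

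RSEM divides a read that matches several genes among them, which matters for these copies. The first GENCODE transcripts of the copies were identical at 95.9% of aligned bases for *Phf11a* and *Phf11b*, at 91.2% and 90.2% for *Phf11d* against *Phf11a* and *Phf11b*, and at 86.8% to 88.2% for *Phf11c* against the others. Because a single difference can help to place a read, windows of 75 bases, the length of a read, were also compared. Only identical windows were counted as shared, so windows that differ in few bases are left out. Windows were pooled over all GENCODE transcripts of a gene, 4 for *Phf11d* and 1 for each other copy. Of these windows, 26.8% in *Phf11b*, 17.4% in *Phf11a*, 7.56% in *Phf11c*, and 5.22% in *Phf11d* occurred in the transcripts of another gene. In the same order these were 298, 223, 256, and 246 shared windows of 1110, 1280, 3385, and 4713. The lower percentages thus go with more windows in all. Reads were paired, so a single window is not the whole unit that is placed. *Setdb2* had none, and its expected counts were whole numbers (within 0.005) in all 6 libraries. Those of *Phf11a* and *Phf11b* were whole in 0 libraries, and those of *Phf11c* and *Phf11d* in 1. The levels of the single copies are therefore less certain than that of *Setdb2*. Windows were shared among the 4 copies and with *Gm6904*, a protein-coding gene model next to *Phf11a* at chr14:59244441-59260216, which shared 104 windows with *Phf11b* and 52 with *Phf11a*. *Gm6904* was too low to be tested, at 1.42, 0.850, and 0.592 normalized CPM in WT and 0.153, 0.169, and 0.184 in *Ifnar1*-/- libraries.

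The sum of the 4 copies does not depend on how reads were divided among them, only on their division with *Gm6904*. It was 208, 148, and 144 normalized CPM in WT and 26.4, 35.1, and 22.3 in *Ifnar1*-/- libraries. Fitted as 1 gene in place of the 4, it had a log2 fold change of 2.57 (SE 0.21), or 5.96-fold. The value lies between those of *Phf11d* and *Phf11b*, the copies that made up most of it.

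Per transcript length, *Phf11b* was the highest in both groups, at 65.0 ± 0.895 TPM in WT and 17.8 ± 6.01 TPM in *Ifnar1*-/- monocytes (SD, n = 3). *Phf11d* followed in WT at 56.1 ± 5.49 TPM, with its highest library (60.8) below the lowest of *Phf11b* (64.0). *Phf11a* (12.3 ± 1.54 TPM) and *Setdb2* (11.5 ± 1.38 TPM) came next and overlapped, and *Phf11c* was last at 1.32 ± 0.322 TPM. In *Ifnar1*-/- monocytes the order was different. *Setdb2* came second at 5.04 ± 0.381 TPM, above *Phf11d* (3.69 ± 1.26 TPM) in every library. *Phf11d* in turn was above *Phf11a* (1.97 ± 0.725 TPM) within each library, although their ranges over the libraries overlapped. *Phf11c* was again last (0.433 ± 0.102 TPM). WT library 1, the highest in normalized CPM for all 5 genes, was not the highest in TPM for *Phf11c*, *Phf11d*, or *Setdb2*.

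The make-up of the family differed between the groups as well. *Phf11d* took 38.1%, 44.4%, and 42.2% of the summed TPM of the 4 copies in WT libraries but 19.9%, 14.1%, and 12.5% in *Ifnar1*-/- libraries. *Phf11b* took 50.1%, 46.7%, and 48.0% in WT and 71.5%, 75.7%, and 76.1% in *Ifnar1*-/- libraries. The ranges of these 2 copies did not overlap between the groups. *Phf11a* held a like share in both, with 9.19% ± 1.36 in WT and 8.22% ± 1.18 in *Ifnar1*-/- libraries (SD, n = 3). *Phf11c* took 0.701% to 1.16% in WT and 1.68% to 2.17% in *Ifnar1*-/- libraries, ranges that did not overlap either. Because the shares add up to the whole, a change in any copy moves those of the others. Put as a ratio, *Phf11d* had 0.761, 0.950, and 0.879 of the TPM of *Phf11b* in WT libraries, against 0.278, 0.186, and 0.165 in *Ifnar1*-/- libraries. By expected counts in place of TPM, *Phf11d* took 44.4% and 16.3% and *Phf11b* 43.1% and 69.1% on average. These shares use the same comparison that led to the genes and were not tested.

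**Figure D2:**
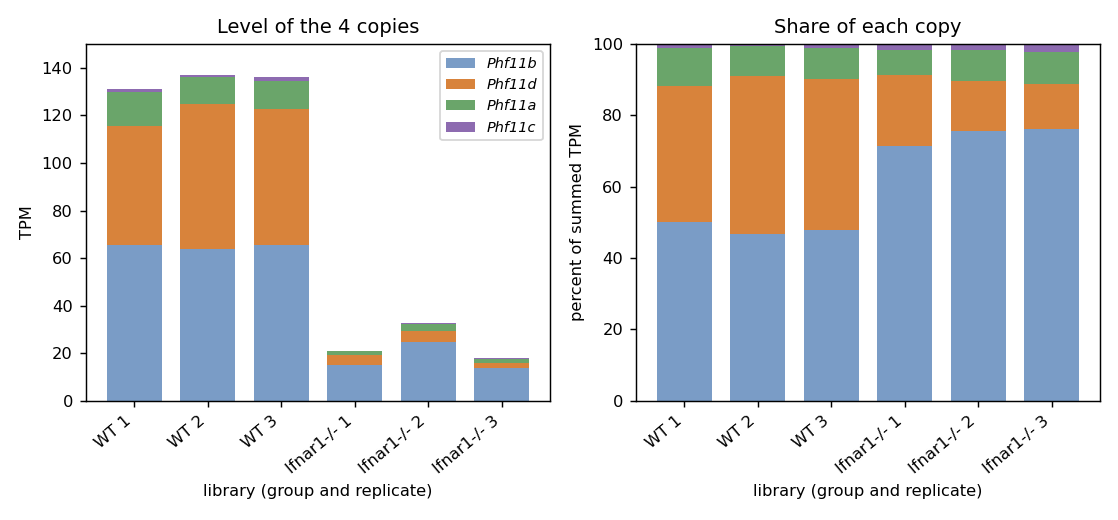
TPM of the 4 *Phf11* copies in each library, stacked, at left, and the percent of their sum that each copy took, at right. The sum is 131 to 137 TPM in WT and 18.0 to 32.7 TPM in *Ifnar1*-/- libraries, and the orange part, *Phf11d*, is the larger share in WT.

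Genes around the row were compared next, as they share its position but were not used to pick it. Within 500 kb on either side, 16 other annotated genes were present and 3 passed the filter on low counts. None of the 3 was called by edgeR, DESeq2, or limma-voom, and none had an unadjusted p under 0.05. *Cab39l*, which encodes a scaffold protein of the LKB1 kinase complex, starts 0.088 kb from the start of *Setdb2* and is read in the opposite direction. Its normalized CPM were 16.4, 15.3, and 15.0 in the WT group and 20.6, 15.3, and 20.4 in the *Ifnar1*-/- group, so that the groups overlapped (log2 fold change -0.27, SE 0.18, adjusted p = 0.483 by edgeR). *Rcbtb1*, on the other side of the row at 39.6 kb from *Phf11a*, had 17.0 ± 0.603 and 15.8 ± 3.36 normalized CPM (log2 fold change 0.10, SE 0.20, adjusted p = 0.845 by edgeR). *Cdadc1*, a deaminase-like gene at 119 kb from *Setdb2*, had 21.3 ± 5.80 and 21.2 ± 1.21 normalized CPM (log2 fold change 0.00, SE 0.21, adjusted p = 0.995 by edgeR). Their median log2 fold change was 0.00, against -0.014 over all tested genes. The other 13 neighbours, mostly lincRNA and pseudogene models, had 0 or few counts. Among them *Gm6904*, at 16.7 kb from *Phf11a*, had 1.42, 0.850, and 0.592 normalized CPM in WT libraries. In *Ifnar1*-/- libraries it had 0.153, 0.169, and 0.184. Every WT library was thus above every *Ifnar1*-/- library for *Gm6904*, on few counts and without a test. Its transcripts share windows with *Phf11a* and *Phf11b*, as given above.

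**Figure D3:**
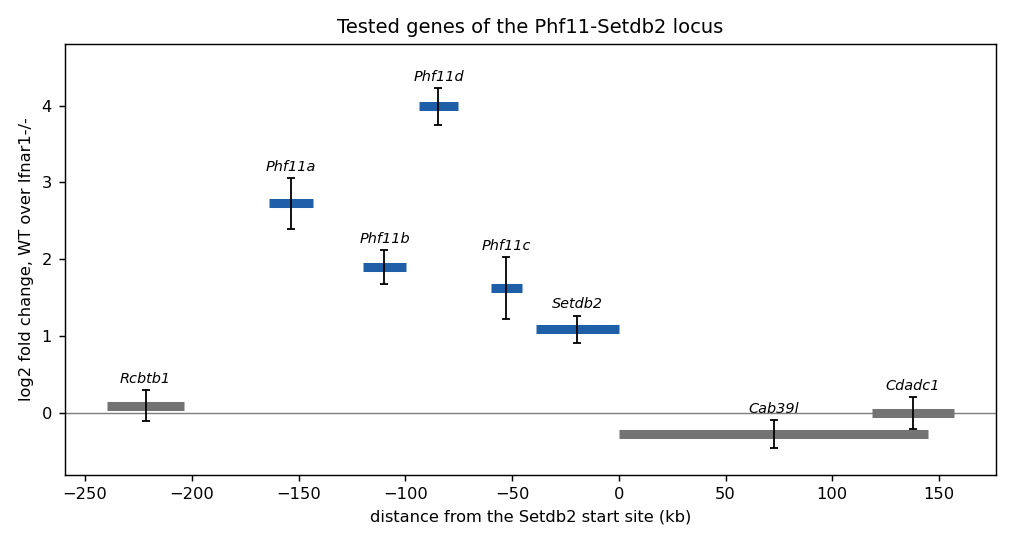
Log2 fold change (WT over *Ifnar1*-/-) of the 8 tested genes of the locus against the distance from the *Setdb2* start site in kb. Each thick line spans a gene, in blue for the *Phf11* copies and *Setdb2* and in grey for neighbours, and error bars are 1 SE. The 3 neighbours lie between -0.27 and 0.10, and the 5 genes between them from 1.09 to 3.99.

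Genes with related roles were then taken as lists. Of 16 genes of other H3 lysine 9 methyltransferases, their cofactors, and the proteins that read the mark, 14 were tested. None was called by edgeR, DESeq2, or limma-voom, although 6 had an unadjusted p under 0.05. The share of all tested genes with such a p is not given here, so nothing is read from these counts in this or the lists below. The median log2 fold change of the 14 genes was -0.10, with a range from -0.59 for *Cbx5*, a heterochromatin protein gene, to 0.60 for *Ehmt2*. *Ehmt2*, which encodes the methyltransferase G9a, had 90.8 ± 17.2 and 59.9 ± 10.1 normalized CPM (SD, n = 3; adjusted p = 0.128 by edgeR). *Atf7ip*, the gene of a SETDB1 cofactor, had 121 ± 8.82 and 95.5 ± 10.3 normalized CPM, and a difference of 0.34 on the log2 scale (SE 0.14, adjusted p = 0.245 by edgeR). *Setdb1*, a relative of *Setdb2* and named here after its values were seen, had 28.6, 31.9, and 31.2 normalized CPM in WT and 32.1, 28.5, and 33.8 in *Ifnar1*-/- libraries (log2 fold change -0.04, SE 0.14, adjusted p = 0.913 by edgeR). The groups overlapped for *Setdb1*, unlike for *Setdb2*.

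Of 11 demethylase genes for the same lysine, 10 were tested and none was called by edgeR or limma-voom, with 1 at an unadjusted p under 0.05. This was *Phf2*, with 51.5, 18.3, and 31.8 normalized CPM in WT and 14.2, 17.6, and 15.8 in *Ifnar1*-/- libraries (log2 fold change 1.11, SE 0.31, adjusted p = 0.113 by edgeR). DESeq2 called *Phf2* (log2 fold change 1.12, adjusted p = 0.0263). WT library 1 was far above WT library 2 for this gene, and without WT library 2 edgeR called it (1.41, adjusted p = 0.0214). The most abundant demethylase genes, *Kdm7a* (296 ± 13.8 and 301 ± 64.1 normalized CPM) and *Jmjd1c* (274 ± 51.1 and 283 ± 73.6), had log2 fold changes of -0.02 and -0.05 (SD, n = 3). Of 16 other genes named PHF for their PHD fingers, 14 were tested, and their log2 fold changes ran from -0.37 to 0.58 with a median of -0.05. None was called by edgeR, DESeq2, or limma-voom, and 1, *Phf10*, had an unadjusted p under 0.05. *Phf3* (91.4 ± 20.8 and 79.5 ± 5.56 normalized CPM) and *Phf20l1* (83.2 ± 16.7 and 85.1 ± 1.54) were the most abundant.

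Genes that have been linked in macrophages to repression by SETDB2 (*Cxcl1*, *Il1b*, *Tnf*, *Il6*, *Nos2*, and *Xdh*) were all tested, and none was called by edgeR, DESeq2, or limma-voom. Of the 6, 1 (*Xdh*, which encodes xanthine dehydrogenase) had an unadjusted p under 0.05. Their median log2 fold change was 0.29, with 4 positive and 2 negative values. *Cxcl1*, a neutrophil chemokine gene, had 4.84, 1.70, and 6.32 normalized CPM in WT and 3.82, 0.847, and 2.94 in *Ifnar1*-/- libraries (log2 fold change 0.76, SE 0.55, adjusted p = 0.513 by edgeR). These values overlap and rest on few counts. *Il1b* had 283 ± 68.7 and 368 ± 116 normalized CPM (log2 fold change -0.38, SE 0.25, adjusted p = 0.463 by edgeR). *Nos2*, the gene of inducible nitric oxide synthase, had 624 ± 142 and 449 ± 314 normalized CPM (log2 fold change 0.47, SE 0.40, adjusted p = 0.576 by edgeR).

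Of 8 genes tied to the known functions of PHF11, which are NF-κB subunits and factors for DNA end resection, 7 were tested and none was called by edgeR, DESeq2, or limma-voom. *Rela*, the gene of the p65 subunit, was the 1 with an unadjusted p under 0.05, at 86.2 ± 13.9 and 59.7 ± 7.66 normalized CPM (log2 fold change 0.53, SE 0.16, adjusted p = 0.132 by edgeR). *Nfkb1* had 263 ± 51.7 and 239 ± 42.0 normalized CPM, and the list had a median log2 fold change of -0.15. *Exo1*, the exonuclease gene, was too low to be tested. At a share of 1.67% called higher among all tested genes, lists of this size with no call are near the background, and nothing is read from them. Of 9 genes of the type I IFN signaling pathway, 3 were called higher in WT by edgeR, *Irf7* (log2 fold change 4.08, SE 0.26), *Usp18* (4.09, SE 0.25), and *Stat2* (2.04, SE 0.20). *Irf9*, with 101 ± 5.46 and 71.3 ± 2.82 normalized CPM (SD, n = 3), was not, at a log2 fold change of 0.50. The list had a median log2 fold change of 0.50. *Phf11d* thus had a log2 fold change near those of *Irf7* and *Usp18*, and *Phf11b* one near that of *Stat2*, as given by their values and SEs and without a test between genes.

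**Figure D4:**
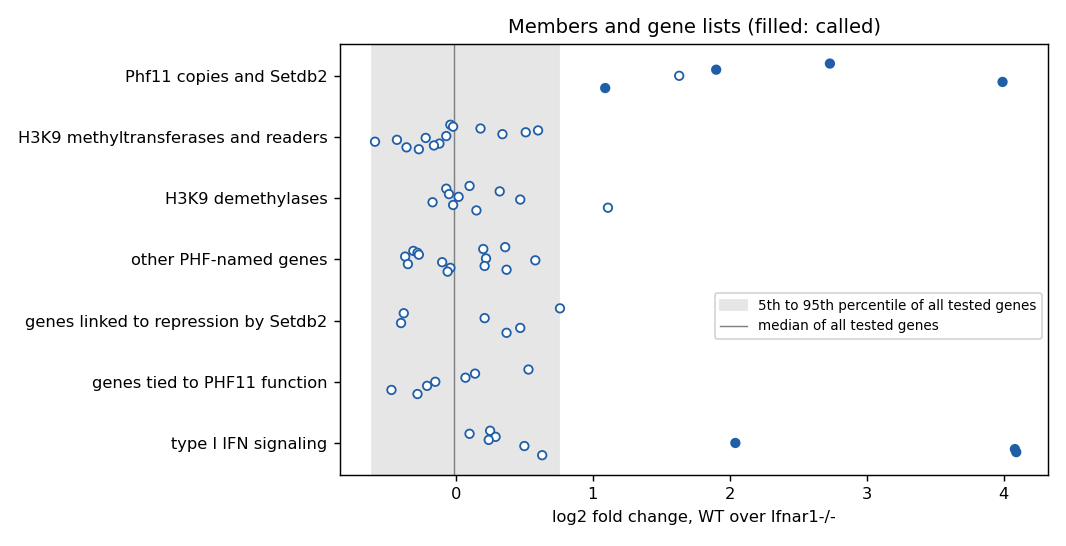
Log2 fold change (WT over *Ifnar1*-/-) of each tested gene, with a row for the *Phf11* copies and *Setdb2* and for each of 6 gene lists, and filled points for genes called by edgeR. The grey band runs from -0.61 to 0.75, the 5th to 95th percentile of all tested genes, and all 5 genes of the top row lie to its right.

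The genes most like *Phf11d* and *Phf11b* over the 6 libraries were found by the root-mean-square difference of log2 values, each gene being centred on its own mean. For *Phf11d* they were *Ifi208* (difference 0.186), *Ctse* (0.273), *Mx1* (0.290), *Gm6545* (0.319), and *Isg15* (0.360). *Ifi208* is an AIM2-like receptor gene, *Ctse* encodes the protease cathepsin E, *Mx1* an antiviral GTPase, and *Isg15* a ubiquitin-like modifier. The closest, *Ifi208*, had 67.7, 47.4, and 38.1 normalized CPM in WT and 3.05, 3.22, and 2.21 in *Ifnar1*-/- libraries. For *Phf11b* they were *Helz2* (0.120), *Dhx58* (0.126), *Pml* (0.135), *Pde7b* (0.136), and *Stat2* (0.137), of which *Dhx58* encodes the RNA sensor LGP2 and *Pml* the organizer of PML nuclear bodies. *Dhx58* had 124, 83.7, and 84.7 normalized CPM in WT and 21.8, 29.5, and 25.2 in *Ifnar1*-/- libraries. In each of the genes named for *Phf11b*, as in *Phf11b* itself, WT library 1 and *Ifnar1*-/- library 2 were the highest of their groups. The differences from *Phf11d* were 0.796 for *Phf11a*, 1.05 for *Phf11b*, 1.35 for *Phf11c*, and 1.47 for *Setdb2*, in the order of their log2 fold changes. The measure includes the difference between the groups for which *Phf11d* was picked, so it is a description only.

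The T cell markers, which moved with the groups, are set beside *Phf11d* in the same unit. In the WT group the summed T cell markers were 48.4, 48.9, and 65.3 TPM and *Phf11d* 50.0, 60.8, and 57.4 TPM. In the *Ifnar1*-/- group the sums were 24.1, 25.4, and 21.2 TPM and *Phf11d* 4.21, 4.60, and 2.25 TPM. By TPM, WT library 1 was the lowest of its group in both, and *Ifnar1*-/- library 3 likewise. The *Ifnar1*-/- libraries had the same order in both, whereas WT library 3 was above WT library 2 in T cell markers but below it in *Phf11d*. The place of WT library 1 depends on the unit, as its *Phf11d* was the highest of the WT group in normalized CPM (86.2, 70.6, and 63.2). The part of T cells in the difference was not tested.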

How the data were processed

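Sorted monocytes gave 3 WT and 3 *Ifnar1*-/- libraries, grouped by the deposited titles. Reads (75 bp, paired) were mapped by the authors to GRCm38 and quantified by RSEM, with STAR 2.6.0c and RSEM 1.2.31 named in the submitters' processing notes. The deposited expected counts are estimated by the authors with RSEM, need not be whole, and are not normalized. The deposited TPM values were scaled by the authors to transcript length and library. The library kit differs between the labels and the methods, and whether reads were counted by strand is not given in the sources used here. GENCODE M21 named 54165 of 54232 genes, and 67 were left without a symbol.

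Expected counts were rounded and tested with edgeR 4.0.16 in R 4.3.3 (TMM, filterByExpr with a minimum count of 10, quasi-likelihood test, Benjamini-Hochberg adjustment over 11254 tested genes, no block). Genes were called at an adjusted p no higher than 0.05 with a fold change no lower than 1.5, as in the study's methods. SEs are the log2 fold change over the square root of F. Normalized CPM use TMM-adjusted library sizes, and likeness used log2(normalized CPM + 0.5). Depth ranged from 4531782 to 7321380 counts, and floors of 3 counts cover counting error only. Other settings were DESeq2 1.42.0, which the study's methods name, limma 3.58.1 voom, RLE, other filters, log2(TPM + 1), removal of mitochondrial and ribosomal RNA genes, the replicate number as a block, and leaving out each library.

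The genes and lists were chosen with earlier results of these data known. Genes named are the 5, all tested neighbours within 500 kb, the called or otherwise the 2 most abundant genes of each list, the called IFN signaling genes with *Irf9*, and the 5 most alike genes, and some items the rule covers are not reported here. *Setdb1*, *Cbx5*, *Phf2*, *Phf10*, *Cxcl1*, *Xdh*, *Exo1*, and *Gm6904* were named after their values were seen. A planned comparison of proteins was replaced by GENCODE transcripts aligned with Biopython 1.88, and the IRF core was added after seeing the data.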

Additional observations from a re-analysis of the deposited data

How the results depend on the processing

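The log2 fold changes of the 5 genes and of the family sum were positive in 82 of 82 alternative fits, and 2 moved by more than the replicate SD, the log2(TPM + 1) differences of 2.19 for *Phf11a* and 0.69 for *Phf11c*, where adding 1 weighs on low levels. With 1 library left out, they ranged from 3.76 to 4.16 for *Phf11d*, 1.69 to 2.12 for *Phf11b*, 2.38 to 2.98 for *Phf11a*, 1.33 to 1.88 for *Phf11c*, 1.01 to 1.25 for *Setdb2*, and 2.39 to 2.79 for the sum, and 3 to 5 of the genes were called. At a minimum of 10 counts in every library, *Phf11c* was not tested.

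Over all genes, 188 were called higher and 52 lower in WT. DESeq2 called 314 and 105, and no filter on low counts 610 and 262. With 1 library left out, 110 to 204 were called higher (112 without *Ifnar1*-/- library 1 and 110 without *Ifnar1*-/- library 3) and 7 to 41 lower (26 without WT library 1, 7 without WT library 3, 7, 25, and 10 without *Ifnar1*-/- libraries 1, 2, and 3). The cause was not tested. Of the lists, the demethylases had 1 call (*Phf2*) with DESeq2, with no filter, and without WT library 2 (0 to 1 with 1 library left out), and the methyltransferases 1 (*Ehmt2*) with no filter. The IFN signaling list had 4 calls with no filter, against 3 in the main fit. With the replicate block, 182 genes were called higher and 38 lower, and 4 of the 5 genes. Same-numbered libraries correlated by 0.0872, 0.0265, and 0.289 across genes in their deviations from group means. Libraries of unlike number were not compared in this way, so these values can neither show nor exclude a pairing. Few counts limit the precision of *Phf11c*, of *Phf11a* in *Ifnar1*-/- libraries, and of *Cxcl1*, and *Gm6904* and *Exo1* were too low to be tested.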
